A study of Mus musculus with 14 samples.

Results

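Cardiolipin is the signature phospholipid of the inner mitochondrial membrane, where the respiratory chain and the uncoupling protein of brown fat work. It is built in the mitochondrion by a short chain of enzymes and its fatty acids are then exchanged in a step called remodelling. In mice, brown fat that cannot make cardiolipin loses much of its ability to produce heat. The 6 genes described here cover that route. Tamm41 makes the activated precursor CDP-diacylglycerol in mitochondria, Pgs1 joins it to glycerol phosphate, Ptpmt1 removes the phosphate to leave phosphatidylglycerol, and Crls1, cardiolipin synthase, joins phosphatidylglycerol to another CDP-diacylglycerol. Taz encodes tafazzin, the transacylase that remodels cardiolipin and whose human form is mutated in Barth syndrome. Lclat1 encodes a lysocardiolipin acyltransferase of the endoplasmic reticulum and its contacts with mitochondria. The row Taz holds tafazzin and not the YAP partner TAZ, whose gene is Wwtr1. Members were taken by gene symbol from tables of 24421 genes, and 6 of 6 had a row. All 6 also passed the filter on low counts, which left 12754 genes in the tissues and 12808 in the cells.

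RNA was sequenced from 14 mouse samples. Brown adipose tissue (BAT) and perigonadal white adipose tissue (WAT), 4 samples each, came from 22-week-old C57BL/6N mice kept for 14 weeks on food that drew 60% of its calories from fat, so no sample comes from lean mice. The remaining samples came from 1 BAT cell line, differentiated in culture with insulin, T3, dexamethasone and IBMX (the labels add rosiglitazone for beige cells). From day 7 it received 100 µM blebbistatin, an inhibitor of class II myosins, or its DMSO vehicle, for 24 h, with 3 samples each. The labels number the replicates without tying them to separate animals or cultures, so p-values reflect only how far these samples scatter, which may be technical. The comparisons ask how fat depots differ and what loss of actomyosin tension does to brown fat cells.

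BAT libraries held 1014959 to 2335058 reads in genes and WAT libraries 6859404 to 16091372, which were 19.1% to 42.3% of the inferred mapped reads in BAT and 71.1% to 83.0% in WAT. Blebbistatin libraries held 10920307 to 12978198 reads and vehicle libraries 10685378 to 14176846. The 6 brown fat markers summed to 15950 to 25060 CPM (reads scaled to the gene total of a library) in BAT and 12.8 to 21.5 CPM in WAT. The 6 skeletal muscle markers stood at 24650 CPM in BAT 4, at 1541 to 3414 CPM in the other BAT libraries and at 16.8 to 40.7 CPM in WAT, so that BAT 4 stood apart. The 5 macrophage markers summed to 177.5 to 570.8 CPM in BAT and 7990 to 13380 CPM in WAT, and the 3 endothelial markers to 712.6 to 877.5 CPM in BAT and 212.7 to 291.2 CPM in WAT. In the cultured cells the muscle markers summed to 3.14 to 3.89 CPM with blebbistatin and 4.28 to 5.85 CPM with vehicle, and the endothelial markers to 0.0750 to 0.279 CPM with blebbistatin and 0.0714 to 0.283 CPM with vehicle. The macrophage markers summed to 46.1 to 61.8 CPM with blebbistatin and 17.96 to 58.8 CPM with vehicle, most of it Gpnmb (49.8 ± 8.23 CPM with blebbistatin and 34.8 ± 21.7 CPM with vehicle, SD, n = 3 each). Of each of these lists 1 marker (Ckm, Emcn and Adgre1) was at 0 in every cell library. The brown fat marker Ucp1 averaged 10.8 ± 3.17 CPM in blebbistatin cells and 67.4 ± 50.3 CPM in vehicle cells (SD, n = 3 each), far under its 15360 ± 3452 CPM in BAT tissue (SD, n = 4), which comes from a separately scaled table. The 6 brown fat markers together summed to 149.5 to 204.3 CPM with blebbistatin and 148.8 to 338.9 CPM with vehicle. Cidea averaged 100.8 ± 16.4 CPM with blebbistatin and 82.9 ± 26.6 CPM with vehicle (SD, n = 3 each), between its 2700 ± 654.7 CPM in BAT and 2.66 ± 0.586 CPM in WAT (SD, n = 4 each). Prdm16, at 38.9 ± 9.23 CPM with blebbistatin and 51.9 ± 8.45 CPM with vehicle, was at least at its mean of 36.7 ± 15.7 CPM in BAT tissue. Dio2 averaged 2.42 CPM with blebbistatin and 3.97 CPM with vehicle, near its 2.33 CPM in WAT and far under its 121.4 CPM in BAT. Cox7a1 averaged 10.1 and 18.4 CPM in the same order, against 1318 CPM in BAT, and Ppargc1a 21.6 and 10.8 CPM, against 72.4 CPM. The 4 white fat markers summed to 134.3 to 162.8 CPM with blebbistatin and 147.8 to 206.0 CPM with vehicle. In BAT they summed to 334.7 to 625.5 CPM and in WAT to 2165 to 4629 CPM. Most of the sum in the cells was Agt, at 139.8 CPM with blebbistatin and 145.5 CPM with vehicle. Agt averaged 3.04 CPM in BAT and 38.1 CPM in WAT. Lep, Mest and Nnat lay far under their WAT means, and Lep fell with blebbistatin (log2 -2.22, limma adjusted p = 0.0074). Lep averaged 0.317 CPM with blebbistatin and 3.28 CPM with vehicle, so it passed the filter on low counts only through the vehicle libraries. The cells, labelled as brown fat, thus had reads of all 6 brown fat markers, but only Prdm16 was near its level in BAT tissue.

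The deposited tables list Crls1 under different transcripts with different starts, NM_001024385 in the count table of the tissues and NM_025646 in the RPKM tables. The 250 bases upstream of each start of Crls1, which had the largest rise of the 6 genes in BAT, are printed here from RefSeq (build GRCm38.p6, plus strand), with capitals marking an E-box, CACGTG.
Crls1 upstream start, chr2:132846416-132846665: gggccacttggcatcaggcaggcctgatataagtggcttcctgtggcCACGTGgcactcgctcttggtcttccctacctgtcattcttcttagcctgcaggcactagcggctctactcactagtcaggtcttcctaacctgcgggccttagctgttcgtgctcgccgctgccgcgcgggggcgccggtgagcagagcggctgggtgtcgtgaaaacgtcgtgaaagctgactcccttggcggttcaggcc
Crls1 downstream start, chr2:132847484-132847733: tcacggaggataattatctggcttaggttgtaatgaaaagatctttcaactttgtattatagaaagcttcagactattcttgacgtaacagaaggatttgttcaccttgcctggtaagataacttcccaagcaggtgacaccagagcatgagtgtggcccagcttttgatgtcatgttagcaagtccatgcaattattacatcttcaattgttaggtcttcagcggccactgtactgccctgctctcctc
The windows lie 1068 bases apart, as far as the starts of the deposited transcripts. Their base composition differs, with 61.6% G or C in the upstream window and 42.4% in the downstream one, beside a median of 52.4% over all 32851 RefSeq windows of this length. The upstream window overlaps an exon of Gm14104, annotated on the opposite strand, and the downstream window lies inside an intron of the longer Crls1 transcript. The E-box was searched after the sequence had been read, and 6.02% of all windows hold it. It occurs in no other window of the 5 members that have one, which make 6 windows in all. Of the other motifs, each searched on both strands, the nuclear receptor site AAGGTCA was found in the window of Ptpmt1 (4.08% of all windows). That window overlaps an annotated exon of Ptpmt1 itself, and the windows of Pgs1 and Taz likewise overlap exons of their own genes. The ETS core CCGGAAG (6.91% of all windows) and the cyclic AMP response element TGACGTCA (1.55%) were not among the letters of any member's window. None of these motifs overlaps another in the members' windows. Tamm41 had no entry.

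On build mm9, which the tables use, Crls1 spans chr2:132672402-132692504 and Ptpmt1 chr2:90750870-90758207 on the minus strand. Tamm41 lies at chr6:114954399-114987892 on the minus strand and Pgs1 at chr11:117848171-117885325. Taz lies at chrX:71528057-71535490 and Lclat1 at chr17:73457325-73592706, and like Crls1 and Pgs1 they are on the plus strand. The Crls1 row of the RPKM table, for the shorter transcript, implies 96.9% to 99.6% as many reads as the Crls1 row of the count table in BAT and 94.3% to 97.8% in WAT. In the cells it implies 88.1% to 96.1% with blebbistatin and 88.1% to 93.6% with vehicle. These shares compare rows and are not the use of a transcript, and the files do not show which start was used. Dnah17 overlaps Pgs1 on the other strand and had at most 0.384 RPKM (reads scaled for exon length and mapped reads) in any tissue library. Mir6933 overlaps Pgs1 on the same strand, with at most 3.20 RPKM in any tissue library and 1.65 RPKM in any cell library. Whether the counting used strand is not given in the sources used here.

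In fat of these mice, 4 of the 6 genes were higher in BAT and none was lower, on CPM with libraries scaled to a common middle (TMM). Crls1 rose 6.06-fold, Taz 2.14-fold, Ptpmt1 1.95-fold and Tamm41 1.70-fold, while Pgs1 and Lclat1 were not called. On RPKM as deposited only Crls1 was higher, Tamm41, Ptpmt1 and Taz took a negative sign, and Pgs1 and Lclat1 were called lower. A gene was called when limma's adjusted p, over all genes tested, was under 0.05. By that rule 62.6% of all tested genes were called, 29.4% higher and 33.2% lower, so a call is common in this comparison. The CPM of BAT and WAT libraries did not overlap for the same 4 genes, where 27.2% of all tested genes were higher and 31.1% lower without overlap. The median log2 fold change was 0.87 over the 6 genes and -0.09 over all tested genes (-0.59 and -1.51 on deposited RPKM). Without BAT 4, the library with the most muscle transcripts, the log2 fold changes of the 4 were 2.72 for Crls1, 1.10 for Taz, 1.04 for Ptpmt1 and 0.67 for Tamm41, all still called. As these are whole tissues, fewer cells of a type and less RNA per cell cannot be told apart. The part of the muscle, macrophage and endothelial transcripts in these differences was not tested.

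**Figure D1:**
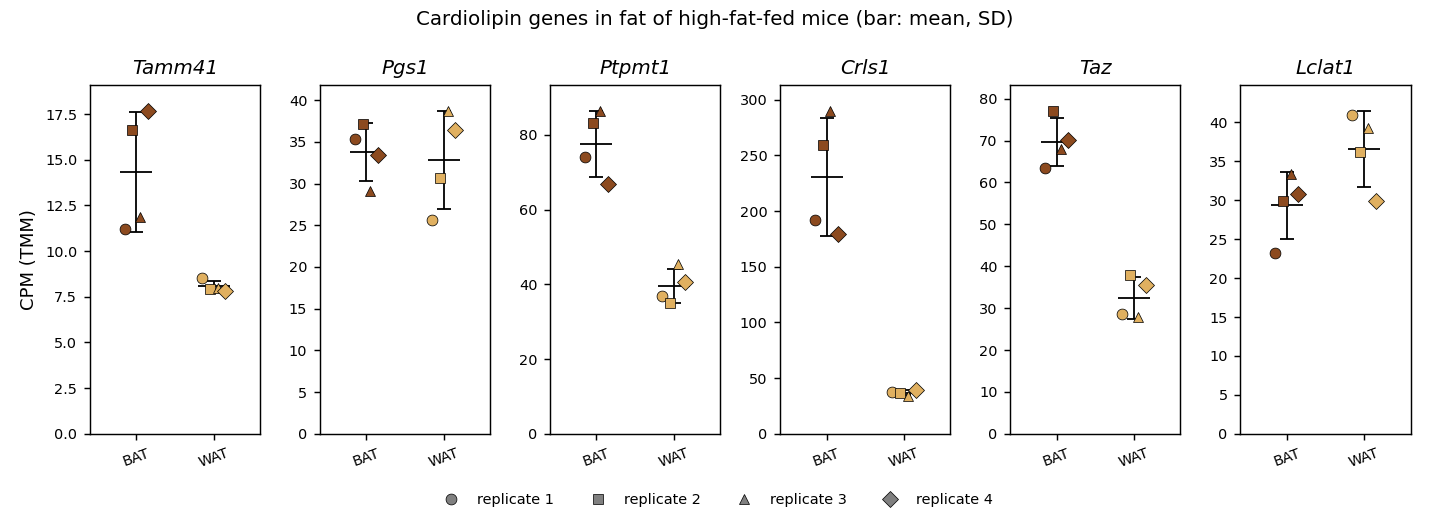
TMM-scaled CPM of the 6 genes in each BAT and WAT library, in the order of the route, with marker shapes for replicates and bars for the mean and SD (n = 4 each). On this scale the BAT and WAT libraries do not overlap for Tamm41, Ptpmt1, Crls1 and Taz and overlap for Pgs1 and Lclat1; on deposited RPKM only Crls1 of these 4 stays higher in BAT.

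Tamm41, which supplies CDP-diacylglycerol, had 11.2, 16.6, 11.9 and 17.7 CPM in BAT 1 to 4, against 8.51, 7.94, 8.01 and 7.84 CPM in WAT 1 to 4. Every BAT library was above every WAT library, and BAT varied more. The means were 14.4 ± 3.29 CPM in BAT and 8.07 ± 0.300 CPM in WAT (SD, n = 4 each), a log2 fold change of 0.77 (SE 0.21, 95% interval 0.30 to 1.23, limma adjusted p = 0.00775). These BAT values rest on few reads, 11 to 30 in a library, against 58 to 144 in WAT. The call held whichever library was left out, with log2 0.67 to 0.85.

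Pgs1, which commits the precursor to phosphatidylglycerol, had 35.4, 37.2, 29.1 and 33.4 CPM in BAT 1 to 4, against 25.7, 30.7, 38.7 and 36.4 CPM in WAT 1 to 4. The groups overlapped, with the highest and the lowest value both in WAT. The log2 fold change was 0.05 (SE 0.17, 95% interval -0.31 to 0.41, limma adjusted p = 0.805), so this interval leaves room for a change of up to 1.33-fold upward. Its sign turned negative with libraries scaled to gene totals alone (log2 -0.11), without a filter on low counts (log2 -0.12) and without BAT 2 (log2 -0.01) or WAT 1 (log2 -0.06).

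Ptpmt1, the phosphatase that yields phosphatidylglycerol, had 74.2, 83.2, 86.3 and 66.8 CPM in BAT 1 to 4, against 36.9, 35.0, 45.4 and 40.7 CPM in WAT 1 to 4. The lowest BAT library lay well above the highest WAT library. The means were 77.6 ± 8.84 CPM in BAT and 39.5 ± 4.61 CPM in WAT (SD, n = 4 each), log2 0.97 (SE 0.14, 95% interval 0.66 to 1.27, limma adjusted p = 7.56e-05).

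Crls1, the synthase that closes the route, had 192.3, 259.6, 290.1 and 179.5 CPM in BAT 1 to 4, against 37.5, 36.6, 34.0 and 39.5 CPM in WAT 1 to 4. WAT was nearly constant, while BAT 3 and BAT 2 were the highest libraries and BAT 4 the lowest of the BAT group. The means were 230.3 ± 53.1 CPM in BAT and 36.9 ± 2.30 CPM in WAT (SD, n = 4 each), log2 2.60 (SE 0.16, 95% interval 2.24 to 2.96, limma adjusted p = 5.81e-08). Of all tested genes, 579 (4.54%) had a larger rise. It was log2 1.16 on deposited RPKM (limma adjusted p = 0.00182), so its direction held on every scale tried.

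Taz, tafazzin, had 63.4, 77.1, 67.9 and 70.1 CPM in BAT 1 to 4, against 28.7, 37.9, 27.9 and 35.5 CPM in WAT 1 to 4. No WAT library came near the lowest BAT library. The means were 69.6 ± 5.72 CPM in BAT and 32.5 ± 4.97 CPM in WAT (SD, n = 4 each), log2 1.10 (SE 0.15, 95% interval 0.78 to 1.42, limma adjusted p = 3.41e-05).

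Lclat1, the acyltransferase that lies largely outside the route within mitochondria, had 23.3, 30.0, 33.4 and 30.8 CPM in BAT 1 to 4, against 41.0, 36.2, 39.3 and 29.9 CPM in WAT 1 to 4. WAT 4 lay within the range of BAT and the other WAT libraries above it. The log2 fold change was -0.32 (SE 0.16, 95% interval -0.67 to 0.04, limma adjusted p = 0.112). Lclat1 was called lower with libraries scaled to gene totals alone (log2 -0.48, limma adjusted p = 0.0199), without a filter on low counts (log2 -0.48, limma adjusted p = 0.0271) and on deposited RPKM. In the authors' deposited table its log2 fold change is -0.51 with an adjusted p of 0.0447. The remaining alternatives left it uncalled. For the other 5 genes the authors' deposited table gives the same calls as limma on CPM, with log2 fold changes of 2.46 for Crls1, 0.93 for Taz, 0.80 for Ptpmt1, 0.66 for Tamm41 and -0.10 for Pgs1.

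The directions depend on how the libraries were scaled. RPKM is relative to all mapped reads, of which BAT libraries had a smaller part in genes. On deposited RPKM the median tested gene stood at log2 -1.51. There 836 genes were called higher in BAT and 9478 lower, against 3756 higher and 4234 lower on CPM. On that scale Tamm41 (log2 -0.67), Ptpmt1 (log2 -0.51) and Taz (log2 -0.37) were not called, with limma adjusted p of 0.0745, 0.147 and 0.305. Pgs1 (log2 -1.41, limma adjusted p = 0.000868) and Lclat1 (log2 -1.76, limma adjusted p = 3.18e-05) were called lower. With each library centred on its median, the RPKM fold changes were 0.90 for Tamm41, 0.16 for Pgs1, 1.06 for Ptpmt1, 2.73 for Crls1, 1.20 for Taz and -0.19 for Lclat1, on the log2 scale, and the same 4 genes were called higher as on CPM. The order of the 6 fold changes, Crls1 first and Lclat1 last, was the same on CPM and on both forms of RPKM. Scaling shifts all genes of a library nearly alike, so this shared order is not separate evidence.

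**Figure D2:**
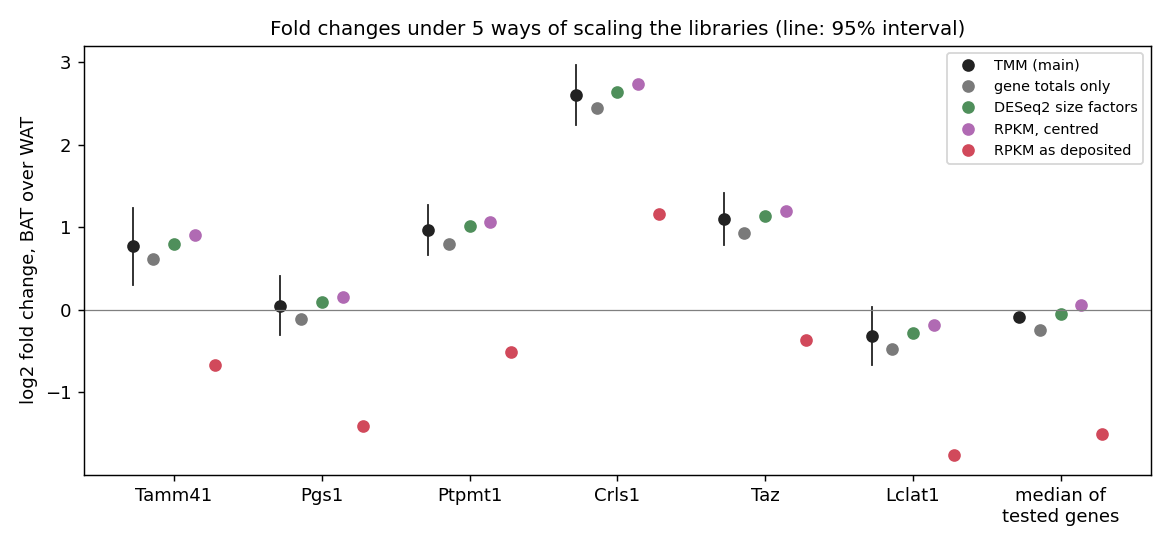
Log2 fold change of each gene, BAT over WAT, under 5 ways of scaling the libraries, with the 95% interval of the TMM fit as a line and the median of all tested genes at the right. Deposited RPKM moves the median tested gene to -1.51 and turns Tamm41, Pgs1, Ptpmt1 and Taz negative, while Crls1 stays positive and Lclat1 negative on every scale.

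Levels of the 6 genes were compared with each other per length, as RPKM. In BAT the order of the mean RPKM was Crls1 at 42.9, Ptpmt1 at 18.2, Taz at 12.4, Pgs1 at 4.70, Tamm41 at 3.89 and Lclat1 at 2.00. In WAT it was Ptpmt1 at 25.0, Crls1 at 18.5, Taz at 15.5, Pgs1 at 12.0, Lclat1 at 6.85 and Tamm41 at 5.80. Crls1 itself had 46.7, 60.3, 31.6 and 32.8 RPKM in BAT 1 to 4, against 17.3, 18.9, 18.1 and 19.7 RPKM in WAT 1 to 4. All 4 BAT libraries had Crls1 above Ptpmt1 above Taz, and Lclat1 last. All 4 WAT libraries had Ptpmt1 above Crls1, and both above the rest. In WAT 2, however, Crls1 at 18.897 RPKM was level with Taz at 18.882 RPKM. Neighbours further down were less distinct: Taz and Pgs1 changed places in WAT 3, Pgs1 and Tamm41 in BAT 4, and Lclat1 and Tamm41 in WAT 4, where Lclat1 had 5.66 and Tamm41 5.69 RPKM. Among all genes of a library, Crls1 ranked at percentile 96.6 to 97.8 in BAT and 85.6 to 87.0 in WAT. Lclat1 ranked at percentile 66.6 to 72.3 in BAT and 69.2 to 73.9 in WAT.

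Ratios of RPKM within a library do not depend on how libraries are scaled, and Crls1 stood higher against each of the other genes in BAT. Crls1 to Pgs1 was 7.49, 9.65, 13.7 and 7.57 in BAT 1 to 4, against 2.05, 1.63, 1.22 and 1.47 in WAT 1 to 4. Crls1 to Ptpmt1, the gene just before it in the route, had a geometric mean of 2.38 in BAT and 0.747 in WAT. Crls1 to Lclat1 had one of 20.3 in BAT and 2.69 in WAT. All 5 ratios with Crls1 on top were higher in BAT, with no overlap of the groups. So were Ptpmt1 to Pgs1 (3.92 in BAT, 2.10 in WAT), Taz to Pgs1 (2.66 in BAT, 1.29 in WAT) and the ratios of Taz, Ptpmt1 and Tamm41 to Lclat1. Tamm41, Ptpmt1 and Taz kept closer to each other, and the BAT and WAT ranges of their 3 ratios overlapped. In all, 10 of 15 ratios did not overlap between the tissues, each with p = 0.0286 in a two-sided exact permutation test, the smallest that 70 splits allow, and 0.0429 adjusted over the 15 pairs. Among the ratios of these genes to every other tested gene 66.6% did not overlap either, so the number of separated pairs is near the background.

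The genes were also set beside 8 transcripts of other mitochondrial proteins in the same library (Cs, Vdac1, Tomm20, Ndufs1, Sdha, Uqcrc2, Cox4i1 and Atp5a1), of which 7 were called higher in BAT on CPM and Tomm20 was not called. Their median log2 fold change was 2.60 on CPM, as large as that of Crls1, and 1.11 on deposited RPKM, where Tomm20 was called lower and Vdac1 had log2 -0.20. The difference is the gene's log2(RPKM + 0.1) minus the mean of the 8. Crls1 stood at -1.87, -1.76, -1.32 and -1.69 in BAT 1 to 4, against -1.88, -1.98, -2.21 and -1.91 in WAT 1 to 4. The groups did not overlap but nearly touched, and the BAT mean was 0.34 higher. That difference turned to -0.16 when the median of the list replaced its mean, and the groups overlapped with a pseudocount of 1, so the direction for Crls1 depends on these choices. The other 5 genes fell behind the list. Lclat1 was at -6.29, -6.27, -5.80 and -5.64 in BAT 1 to 4 and at -3.19, -3.40, -3.42 and -3.69 in WAT 1 to 4, a difference of -2.58. Pgs1 differed by -2.23, Tamm41 by -1.49, Ptpmt1 by -1.33 and Taz by -1.19, each with no overlap and with an exact permutation p of 0.0286, two-sided, the smallest possible. Of all tested genes 86.5% were lower beside this list without overlap and 3.43% higher, so falling behind it is what most genes did.

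**Figure D3:**
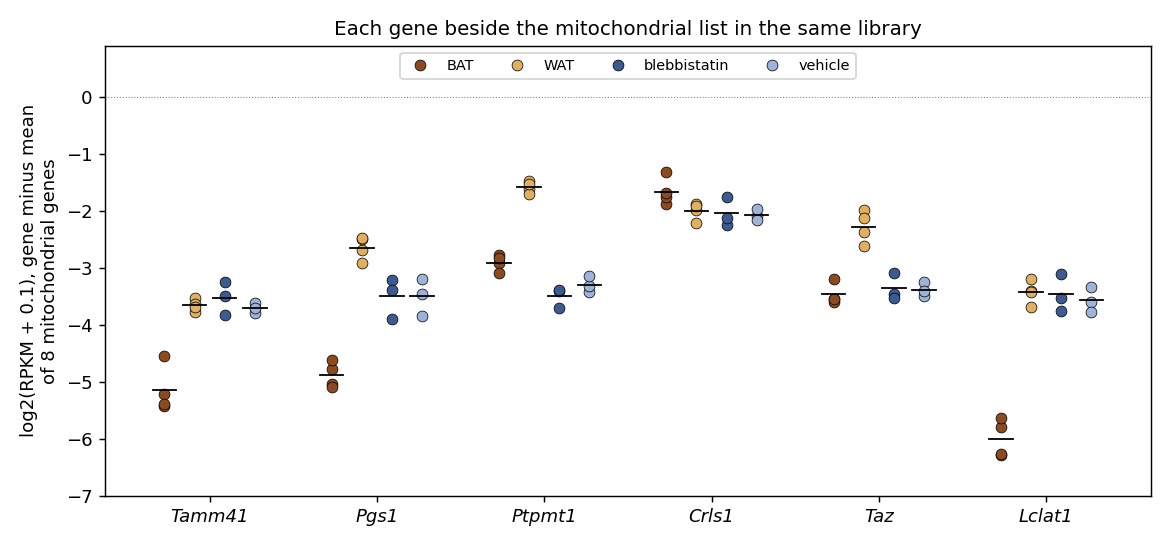
Each gene's log2(RPKM + 0.1) minus the mean of the same over 8 mitochondrial genes, with 1 point per library and a line at the group mean, for BAT, WAT, blebbistatin cells and vehicle cells. BAT points lie below WAT points for every gene except Crls1, whose BAT mean is 0.34 above its WAT mean (-0.16 with the list median), and the cell groups overlap for every gene.

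Of the genes around the route, those that organise the inner membrane all rose in BAT on CPM. These are the prohibitins, the subunits of the MICOS complex at the crista junctions and partners such as Opa1, the fusion protein of the inner membrane. All 12 were called higher in BAT on CPM, where 29.4% of all tested genes were, with a median log2 fold change of 2.24, against -0.09 over all tested genes. The rise was not particular to them, as the mitochondrial list had 7 of 8 called higher and a median of 2.60. On deposited RPKM 6 were called higher, and Chchd6 (log2 -0.82) and Dnajc19 (log2 -0.84) were called lower, where the median of all genes was -1.51. Apoo, a MICOS subunit, averaged 53.1 ± 8.58 CPM in BAT and 3.17 ± 0.405 CPM in WAT (SD, n = 4 each; log2 3.86, SE 0.19, limma adjusted p = 1.02e-08). Phb, prohibitin, averaged 272.1 ± 33.1 CPM in BAT and 42.3 ± 1.47 CPM in WAT (log2 2.67). The smallest rise was that of Chchd6, another MICOS subunit (log2 0.65, limma adjusted p = 0.0139), whose call was lost with libraries scaled to gene totals alone. Without BAT 1, 11 of the 12 were called.

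Genes that supply and carry the precursors were split. Of 9 listed, 8 were tested, 3 were called higher in BAT on CPM, 1 lower and 4 not, with a median log2 fold change of -0.32. Over all tested genes 29.4% were higher and 33.2% lower, so 3 of 8 is near the share of all genes. On deposited RPKM 1 was called higher and 5 lower, with a median of -1.76. Without BAT 1, 2 were called lower. Slmo2, also called Prelid3b, a relative of the proteins that carry phosphatidic acid between the mitochondrial membranes, averaged 365.3 ± 79.0 CPM in BAT and 57.4 ± 4.92 CPM in WAT (SD, n = 4 each; log2 2.64, limma adjusted p = 5.19e-08). Stard7, which brings phosphatidylcholine to mitochondria, was higher on CPM (log2 1.93) and was not called on deposited RPKM (log2 0.45). Cds1 and Cds2 make CDP-diacylglycerol in the endoplasmic reticulum, and they went opposite ways on CPM. Cds1 averaged 40.2 ± 3.52 CPM in BAT and 16.1 ± 2.36 CPM in WAT (log2 1.30, and -0.16 on deposited RPKM). Cds2 averaged 96.1 ± 16.2 CPM in BAT and 136.8 ± 25.0 CPM in WAT (log2 -0.50, limma adjusted p = 0.0221). Leaving out BAT 3, BAT 4 or WAT 4 ended the call for Cds2, as did RPKM centred on library medians (log2 -0.39, limma adjusted p = 0.0777). Cds2 was called lower with libraries scaled to gene totals alone (log2 -0.67) and on deposited RPKM (log2 -1.96). Prelid1 (log2 -0.35), which carries phosphatidic acid, and its partner Triap1 (log2 -0.46) were not called on CPM. Both were called lower on deposited RPKM (log2 -1.83 for Prelid1 and -1.94 for Triap1), and Prelid1 also with libraries scaled to gene totals alone (log2 -0.51, limma adjusted p = 0.0106).

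Of 10 genes of turnover, scrambling and other remodelling, 4 were called higher in BAT on CPM, 2 lower and 4 not, with a median log2 fold change of 0.22, where 29.4% of all tested genes were higher and 33.2% lower. On deposited RPKM the balance was the other way, with 3 called higher and 6 lower and a median of -1.16. Hadha and Hadhb, the subunits of the trifunctional protein of fat oxidation, rose by log2 2.85 and 3.74. Hadha is on this list because a form of the human protein acylates monolysocardiolipin, but its main task is beta oxidation. Pld6, a phospholipase D family protein of the mitochondrial surface, averaged 8.64 ± 3.80 CPM in BAT and 0.346 ± 0.264 CPM in WAT (SD, n = 4 each; log2 3.40, limma adjusted p = 1.21e-05). At that WAT level Pld6 passed the filter on low counts only through its BAT libraries, the group where it is high. Its WAT mean lies under the 0.5 added to CPM before the log, so the size of the rise depends on that value. On RPKM the rise was log2 2.72 as deposited and 4.29 with libraries centred on their medians. The phospholipase Pnpla8 had a log2 fold change of 0.84 on CPM and -0.64 on deposited RPKM. Lpgat1, an acyltransferase of the endoplasmic reticulum, fell to 84.2 ± 14.2 CPM in BAT, against 517.6 ± 187.0 CPM in WAT (log2 -2.57, limma adjusted p = 5.75e-07). Nme4, a mitochondrial nucleoside diphosphate kinase that binds cardiolipin, was lower in BAT on CPM (log2 -1.08) and on deposited RPKM (log2 -2.57).

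**Figure D4:**
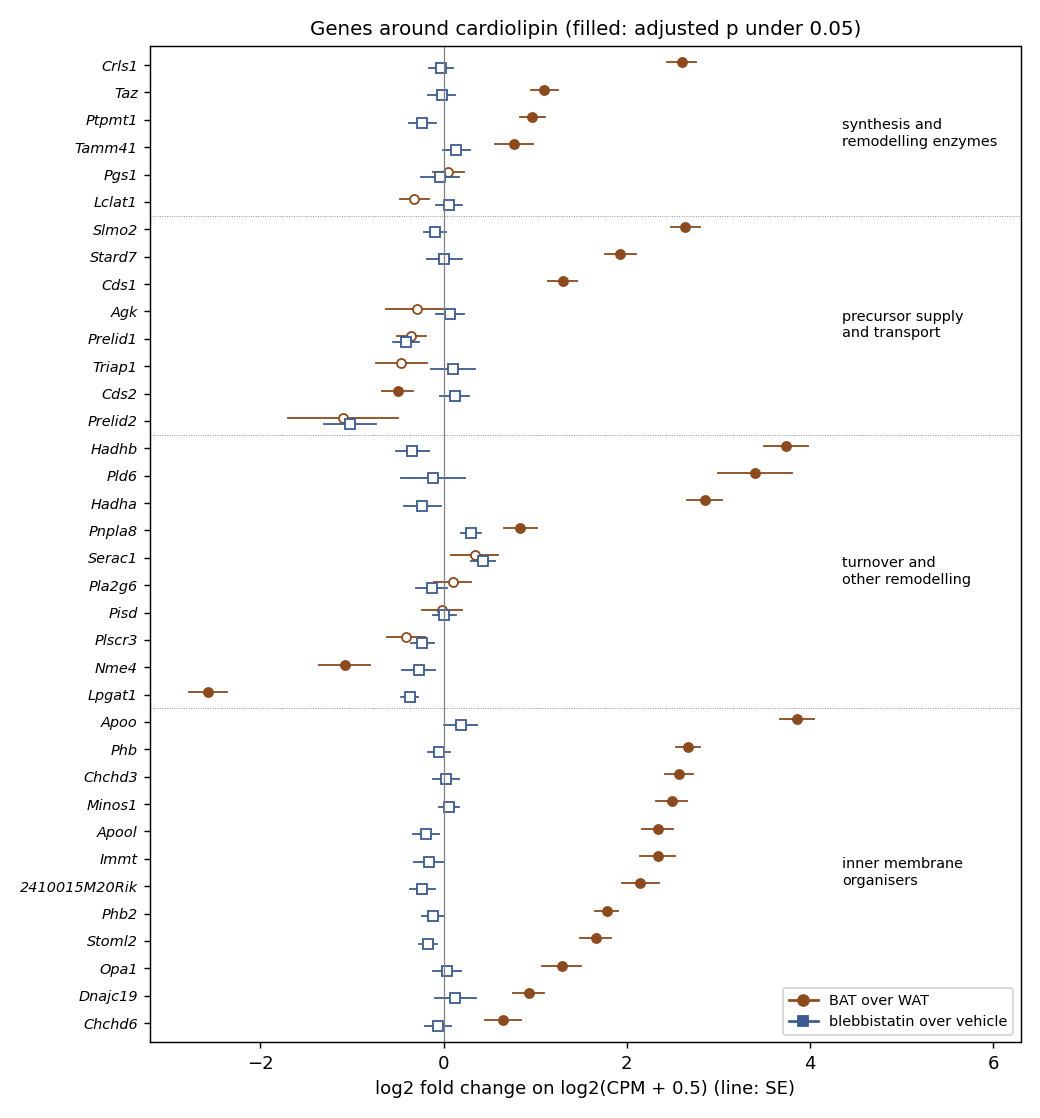
Log2 fold changes on log2(CPM + 0.5), with the SE as a line, for the 6 genes and the 3 lists around them, BAT over WAT as circles and blebbistatin over vehicle as squares, filled where the adjusted p is under 0.05. In the tissues all 12 organisers are filled and lie above 0 on this scale (2 of them were called lower on deposited RPKM), while no square is filled.

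For each gene the 3 tested genes with the nearest tissue profile were found, by the root mean square difference of centred log2(CPM + 0.5) over the 8 tissue libraries. Crls1 was nearest to Slmo2 (0.086), followed by Fam210a (0.106) and Bsg (0.106). Slmo2 is the only gene of the lists around the route among these neighbours. The measure includes the difference between BAT and WAT, so genes with like fold changes lie near. Beside log2 2.60 for Crls1, these were 2.64 for Slmo2, 2.59 for Fam210a and 2.70 for Bsg, so nearness alone shows no link in the route. Ptpmt1 was nearest to Nmt2 (0.067), Coa5 (0.083) and Timm17b (0.098). Taz was nearest to Tdp2 (0.093), Sh2b1 (0.105) and Sdhaf3 (0.106), and Tamm41 to Tmco4 (0.114). Pgs1 was nearest to Tnpo2 (0.070) and Lclat1 to C2cd3 (0.066). Among the 6 themselves, Taz and Ptpmt1 were closest (0.24) and Crls1 and Lclat1 farthest apart (1.48).

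In the cultured cells, 24 h of blebbistatin left no member past the threshold. None of the 6 was called by limma, edgeR's quasi-likelihood test or DESeq2, and none had an unadjusted p under 0.05 in limma. Over all genes tested, limma called 111, which is 0.867%, and 12.4% had an unadjusted p under 0.05, so calls were rare among all genes. By direction, 0.133% were called higher and 0.734% lower. The CPM of the treatments overlapped for all 6 members, where 9.62% of all tested genes were higher and 9.99% lower without overlap. The median log2 fold change was -0.02 over the 6 genes and 0.01 over all tested genes.

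Crls1 had 69.4, 87.0 and 92.7 CPM in blebbistatin 1 to 3, against 86.3, 86.6 and 79.1 CPM in vehicle 1 to 3. The treated libraries held both the highest and the lowest value. Its log2 fold change was -0.03 (95% interval -0.32 to 0.27, limma adjusted p = 0.961), the narrowest interval of the 6. Ptpmt1 had 22.6, 27.6 and 19.1 CPM in blebbistatin 1 to 3, against 26.6, 28.0 and 26.3 CPM in vehicle 1 to 3. Only blebbistatin 2 lay within the vehicle range, and the other treated libraries were under it. Its log2 fold change, -0.23, was the largest of the 6 in size (95% interval -0.58 to 0.11, limma adjusted p = 0.611).

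Tamm41 averaged 19.8 ± 2.84 CPM with blebbistatin and 17.9 ± 2.11 CPM with vehicle (SD, n = 3 each; log2 0.14, 95% interval -0.21 to 0.49). Its highest value was in a treated library and its lowest in a vehicle library, with the rest interleaved. Pgs1 had 44.8, 48.1 and 28.7 CPM in blebbistatin 1 to 3, against 34.2, 44.5 and 44.5 CPM in vehicle 1 to 3 (log2 -0.04, 95% interval -0.52 to 0.43). For Pgs1 the groups overlapped, and the interval is the widest of the 6. Taz had 39.1, 35.8 and 28.8 CPM in blebbistatin 1 to 3, against 34.4, 39.7 and 30.6 CPM in vehicle 1 to 3 (log2 -0.02, 95% interval -0.37 to 0.33). Lclat1 had 70.8, 71.3 and 96.9 CPM in blebbistatin 1 to 3, against 79.8, 68.7 and 78.4 CPM in vehicle 1 to 3 (log2 0.06, 95% interval -0.27 to 0.39). For Taz the treatments spanned nearly the same range, and for Lclat1 blebbistatin 3 alone lay above the vehicle libraries. Every one of these intervals includes 0, and the limma adjusted p lay at 0.791 or above for these 4 genes.

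Blebbistatin 3 differed from the other cell libraries in the balance of these genes. No member was called without it. It had the lowest CPM of all 6 cell libraries for Pgs1, Ptpmt1 and Taz and the highest for Crls1, Lclat1 and Tamm41. The share of all genes for which this library was lowest or highest was not counted, so this may not be particular to the members. Crls1 to Pgs1 was 1.97, 2.38 and 4.43 in blebbistatin 1 to 3, against 3.38, 2.46 and 2.33 in vehicle 1 to 3. Of the 15 ratios 0 were separated between the treatments (11.2% of the ratios to every other gene were). The smallest p of the exact permutation test with 20 splits is 0.1, so this design could not reach 0.05. Beside the mitochondrial list 0 of 6 genes were separated, where 5.51% of all tested genes were lower and 4.72% higher.

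**Figure D5:**
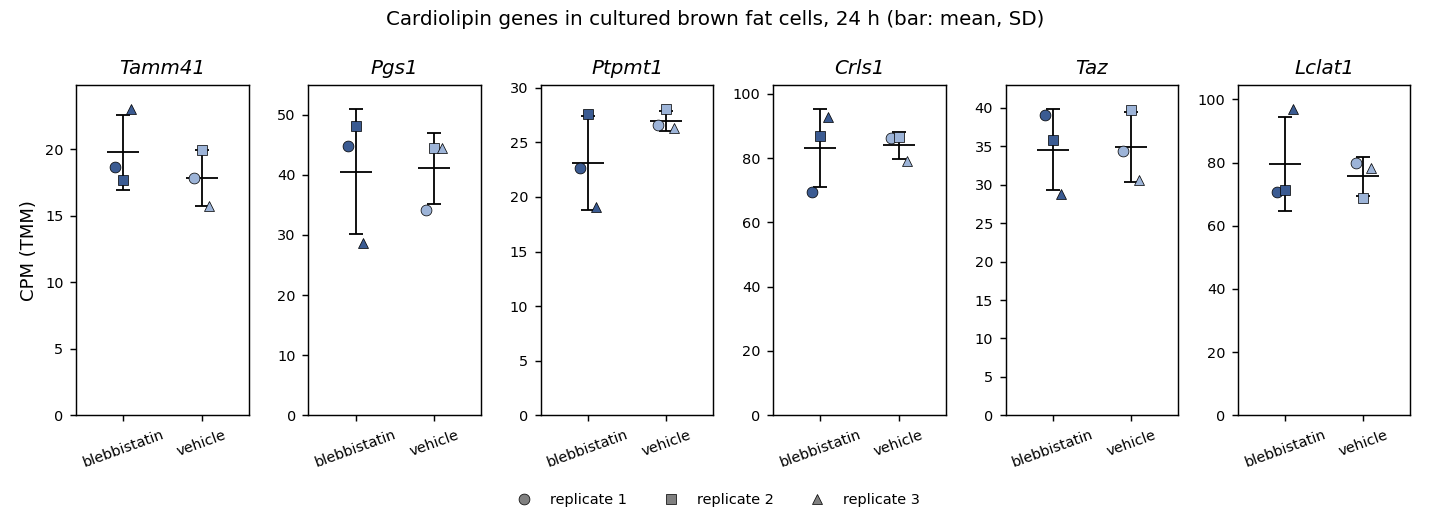
TMM-scaled CPM of the 6 genes in each blebbistatin and vehicle library, with marker shapes for replicates and bars for the mean and SD (n = 3 each). The treatments overlap for every gene, and blebbistatin 3 is lowest for Pgs1, Ptpmt1 and Taz and highest for Tamm41, Crls1 and Lclat1.

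The lists around the route gave 0 calls in the cells by limma, of 7 tested supply genes, 10 of turnover and remodelling and 12 organisers, with medians of 0.01, -0.18 and -0.06 on the log2 scale. DESeq2 called 1 lower, on the turnover list. The largest difference was that of Prelid2, a relative of Prelid1, which averaged 1.89 ± 0.638 CPM with blebbistatin and 4.33 ± 1.27 CPM with vehicle (SD, n = 3 each; log2 -1.02, limma adjusted p = 0.163). Cds1 was at 0.318 ± 0.197 CPM with blebbistatin and 0.221 ± 0.0556 CPM with vehicle and was not tested.

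In the cells, too, Crls1 had the highest level per length of the 6 genes, in all 6 libraries, with a mean of 38.3 RPKM under blebbistatin and 37.4 RPKM under vehicle. The other 5 lay close together, with means of 13.6 to 15.6 RPKM under blebbistatin and 12.0 to 16.0 RPKM under vehicle, and their order changed from library to library. The wide steps of BAT, from Ptpmt1 down to Lclat1, were not seen there. Crls1 ranked at percentile 91.1 to 94.1 under blebbistatin and 92.6 to 93.4 under vehicle, between its ranges in BAT and WAT. Beside the mitochondrial list the genes of the cells followed neither tissue as a whole. Lclat1 stood at -3.76 to -3.11 under blebbistatin and -3.78 to -3.34 under vehicle, near its place in WAT, as did Tamm41 (-3.83 to -3.25 under blebbistatin and -3.80 to -3.62 under vehicle). Taz, at -3.53 to -3.08 under blebbistatin and -3.50 to -3.25 under vehicle, lay near its -3.59 to -3.19 in BAT and under its -2.61 to -1.98 in WAT. Ptpmt1, at -3.70 to -3.38 under blebbistatin and -3.42 to -3.15 under vehicle, lay below its -3.09 to -2.78 in BAT and its -1.70 to -1.47 in WAT. Pgs1, at -3.90 to -3.22 under blebbistatin and -3.85 to -3.19 under vehicle, lay between the tissues, and Crls1, at -2.25 to -1.75 under blebbistatin and -2.15 to -1.97 under vehicle, overlapped its range in WAT and, in blebbistatin 3, that in BAT. Cells and tissues were prepared and scaled separately, so these ranks and ratios were not tested against each other.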

How the data were processed

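Stranded mRNA libraries of 8 tissue and 6 cell samples were analysed. Reads were processed with STAR, HOMER and edgeR on build mm9, per the submitters' processing notes, which name no versions. For each experiment the authors deposited a gene signal table (read counts scaled by 1 factor per library) with the authors' log2 fold changes and adjusted p-values, and a table of RPKM with exon lengths. Dividing the deposited signal by the worth of 1 read gave values within 0.1 of a whole number up to 1000 reads for 100% of values, and these recovered reads gave the depths, the filter and the count tests. Another 3 libraries named in a header line of the cell RPKM table were not analysed here.

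Genes passed edgeR's filterByExpr (minimum count 10, total 15). The main test was limma's empirical Bayes test with trend and robust variances on log2(CPM + 0.5), TMM factors, group as the only term, within each experiment, with Benjamini-Hochberg adjustment over all genes tested and a threshold of 0.05. A fold change on this scale understates the change of low genes. Intervals are 95%. Alternatives were limma on log2(RPKM + 0.1), edgeR's quasi-likelihood test and DESeq2 on recovered reads, other scalings, pseudocounts, no filter, a replicate block and leaving out each library. Ratios used log2(RPKM + 0.1) and two-sided exact permutation tests. Scripts were tested on simulated counts with the same scatter setting for all genes. Changes of log2 1 were recovered for 76% of changed genes in the tissue setting and 82.7% in the cell setting, and changes of log2 2 for 100% in both. Of the genes called, 2.26% were false in the tissue setting and 7.65% in the cell setting, the latter above the threshold of 0.05. The simulation changed few genes, about as many up as down. In its tissue setting 96 genes changed by log2 1 and 100 by log2 2, of 12621, while 62.6% of tested genes were called in the real tissues. These recovered and false shares therefore need not hold for the tissue comparison. Fits used limma 3.58.1, DESeq2 1.42.0 and edgeR 4.0.16 in R 4.3.3.

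The genes and lists were chosen with earlier results of these data known. Named are the 6 members, genes of the lists and markers, and the 3 nearest tissue profiles of each member. Labels give no batch.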

Additional observations from a re-analysis of the deposited data

Results flagged for a closer look

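Single values were compared with the rest of their group in the 54 groups of 4 tissue libraries formed by CPM, ratios and differences from the mitochondrial list. A library lay apart from the others of its group in 2 of them, where chance gives about 1 in 20. The 2 found among 54 are thus no more than chance would give. Both were in BAT 4, the library with the most skeletal muscle transcripts (24650 CPM over 6 markers, against 1541 to 3414 CPM in the other BAT libraries). The log2 ratio of Crls1 to Lclat1 was 3.957 in BAT 4 and 4.42 to 4.506 in the other BAT libraries. Taz stood at -3.189 beside the mitochondrial list in BAT 4 and at -3.593 to -3.538 in the other BAT libraries. The part of the muscle transcripts in these values was not tested.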

How the results depend on the processing

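In the tissues the calls of Crls1, Taz, Ptpmt1 and Tamm41 held under every alternative on CPM or reads and on RPKM centred on library medians, and in every fit that left out 1 library. On deposited RPKM, where the median of all genes was at log2 -1.51, the sign turned for Tamm41 (-0.67), Pgs1 (-1.41), Ptpmt1 (-0.51) and Taz (-0.37). Crls1 beside the mitochondrial list turned to -0.16 with the list median. In the cells no alternative called a member. The number of genes called there, 111, was 30 on RPKM, 497 with DESeq2, 73 without TMM and 30 with a replicate block, and it was 13 (without vehicle 2) to 321 (without vehicle 1) when 1 library was left out. It was also 25, 27 or 28 without blebbistatin 2, blebbistatin 1 or vehicle 3. The cause was not tested. The log2 ratio of Taz to Tamm41 differed by -0.15 between treatments, and by -0.27 to 0.08 with 1 library left out, turning positive without blebbistatin 3. With 1 cell library left out, 0 to 4 of the 15 ratios and 0 to 1 of the 6 differences from the mitochondrial list were separated. The correlation of deviations between same-numbered samples was -0.037 to 0.073 in the tissues and -0.49 to 0.318 in the cells. Between differently numbered samples it was -0.2 to 0.186 in the tissues and -0.459 to 0.447 in the cells. With deviations taken from the means of such small groups, this cannot show whether the numbers pair samples, and the labels do not say. A replicate block gave 7720 called genes and 4 called members in the tissues. Tamm41 had 11 to 30 reads in a BAT library, which limits its precision. Counting intervals and read numbers cover counting error only.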
